A study of Mus musculus with 6 samples.

Results

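Gap junction channels and a related membrane channel were followed in the vestibular epithelium of mice through 7 genes of the 52636 in the gene table: the connexin genes Gjb6, Gjb2, Gja1, Gjc3, Gjb1 and Gjc1, and the pannexin gene Panx1. They were chosen by gene symbol as members of these families, and all 7 were found and kept a Padj (the p-value adjusted by the Benjamini-Hochberg method over all tested genes). Bulk RNA-seq compared 3 Control mice, which drank plain water, with 3 IDPN mice, which received 30 mM 3,3'-iminodipropionitrile in the drinking water for 8 weeks. All animals were male mice of the 129S1/SvImJ strain, and each library pooled the utricles and cristae of 1 animal. IDPN is a nitrile known to damage hair cells (HCs), the mechanosensory cells of the inner ear, and the comparison asks how subchronic exposure alters expression in the tissue that holds them. Control animals have a code prefix in common in their sample titles, absent from the IDPN animals, and effects of whatever it marks and of treatment cannot be told apart.

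Connexins are membrane proteins that span the membrane repeatedly and assemble into hexameric hemichannels. Hemichannels of neighbouring cells dock through their extracellular loops and form gap junctions, which pass ions and small metabolites between cells. In the inner ear, Gjb2 (connexin 26, Cx26) and Gjb6 (Cx30) are the main connexins of supporting cells and of the connective tissue fibrocytes around them, HCs are not coupled by gap junctions, and human mutations in either gene cause deafness. Gja1 (Cx43) is the most widespread connexin of the body, Gjc3 (Cx29) and Gjb1 (Cx32) are connexins of myelinating cells, and Gjc1 (Cx45) is known from vascular and neural cells. Panx1 (pannexin 1) forms single-membrane channels that release ATP and does not normally make gap junctions.

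The docking loops are conserved across the connexins, and the coding sequence of the first extracellular loop is shown because it is what the 6 connexin genes share and Panx1 lacks. Each line gives 36 bases of the annotated coding sequence (GENCODE M21, GRCm38), read 5' to 3' on the coding strand, with the codons of the 3 conserved cysteines in capitals.
Gjb6 (chr14:57124611-57124646, minus strand): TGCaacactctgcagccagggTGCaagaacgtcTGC
Gjb2 (chr14:57100558-57100593, minus strand): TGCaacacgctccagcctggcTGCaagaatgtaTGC
Gjb1 (chrX:101384324-101384359, plus strand): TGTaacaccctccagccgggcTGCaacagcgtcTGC
Gja1 (chr10:56387706-56387741, plus strand): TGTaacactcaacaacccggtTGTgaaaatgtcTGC
Gjc1 (chr11:102800984-102801019, minus strand): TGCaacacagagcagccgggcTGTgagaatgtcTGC
Gjc3 (chr5:137957797-137957832, minus strand): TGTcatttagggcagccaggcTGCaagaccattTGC
The cysteine codons had the same spacing in all 6 genes, with 6 and then 3 codons between them. They began at codon 53 in Gjb6, Gjb2, Gjb1 and Gjc1, at codon 54 in Gja1 and at codon 64 in Gjc3. The coding sequence of Panx1 had 0 matches to this spacing. Coding lengths ran from 226 codons in Gjb2 to 426 in Panx1.

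Gjb2 and Gjb6 were the closest relatives, with 75.7% identity over 678 aligned coding bases, against 50.0% to 68.1% for the other connexin pairs. Their longest shared run was 20 bases, tctcacatccggctctgggc, at coding positions 214 to 233 of both. A split of reads between related genes was therefore checked on the transcripts. Of the 76-base words in the transcripts of Gjb6, Gjb2, Gja1, Gjb1, Gjc1 and Panx1, 0 occurred in a transcript of another gene, and in Gjc3 this held for 20 of 4280 (0.467%). None of the members overlapped another annotated gene.

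Gjb6 and Gjb2 are neighbours on chromosome 14, at chr14:57123303-57133611 and chr14:57098600-57104702, both on the minus strand. The 250 bases before each start site are shown because these adjacent genes carried nearly all connexin counts of the tissue. Capitals mark GC boxes (GGGCGG on either strand), and the sequences are those of RefSeq on GRCm38.p6, on the minus strand.
Gjb6 promoter (chr14:57133612-57133861): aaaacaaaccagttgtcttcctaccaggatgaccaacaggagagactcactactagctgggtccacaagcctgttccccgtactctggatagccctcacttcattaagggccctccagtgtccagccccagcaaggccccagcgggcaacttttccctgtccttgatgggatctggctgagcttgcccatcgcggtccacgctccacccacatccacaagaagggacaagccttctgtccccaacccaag
Gjb2 promoter (chr14:57104703-57104952): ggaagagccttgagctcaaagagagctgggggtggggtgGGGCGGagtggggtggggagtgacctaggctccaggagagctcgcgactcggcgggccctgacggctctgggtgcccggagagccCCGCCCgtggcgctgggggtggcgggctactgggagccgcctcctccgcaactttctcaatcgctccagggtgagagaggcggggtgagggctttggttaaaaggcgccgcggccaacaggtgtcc
The Gjb2 window had 69.2% GC and 2 GC boxes, and the Gjb6 window had 56.8% GC and 0. GC boxes occurred in 32.9% of 27025 promoters of this length, and a GC content over 60% in 26.6%. Neither window held the letters CCAAT, found in 34.5% of promoters, or TATAAA, found in 3504 of the 27025, on either strand. These letter matches describe the windows and say nothing of which factors bind there.

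The connexin message of the tissue was almost wholly Gjb2 and Gjb6. Together they took 98.7% to 99.5% of the counts of the 7 members in each library. They made up 0.613%, 0.505% and 0.509% of all counts in Control 1 to 3 against 0.392%, 0.385% and 0.382% in IDPN 1 to 3, so that every IDPN library was below every Control library. The 95% Wilson intervals of these shares were at most 0.00471 percentage points wide. They treat each read as an independent draw and leave out variation between animals. PCR copies were counted as reads, so the counting error can be larger than these intervals. In the ranking of all genes by count, Gjb6 stood at 30, 35 and 34 in Control and at 43, 59 and 48 in IDPN. Gjb2 stood at 38, 48 and 47 in Control and at 52, 58 and 47 in IDPN.

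Levels of different genes were compared as normalized count per kilobase of merged exons. In Control, Gjb6 had 55067 ± 12660 (SD, n = 3) per kb and Gjb2 43836 ± 10648 (SD, n = 3), a difference within their spread between libraries. Within each Control library Gjb6 was nevertheless above Gjb2, at 68718.5, 52767.2 and 43714.7 against 54374.7, 44051.0 and 33081.1. Next came Gjb1 at 193 ± 46.8, Panx1 at 131 ± 11.3, Gjc3 at 52.3 ± 5.32, Gja1 at 22.7 ± 2.63 and Gjc1 at 19.2 ± 5.29 per kb (SD, n = 3). Gja1 and Gjc1 did not differ beyond their spread, although Gja1 was above Gjc1 in each Control library. In IDPN, Gjb2 had 30126 ± 4832 and Gjb6 28661 ± 2442 per kb (SD, n = 3), again within their spread on this length. Gjb2 was above Gjb6 in IDPN 2 and IDPN 3 and below it in IDPN 1. Gja1 was the lowest member in IDPN, at 12.7 ± 1.67 per kb, under Gjc1 at 22.8 ± 2.33 (SD, n = 3). Gjb1 stood at 258 ± 50.2, Panx1 at 98.9 ± 16.6 and Gjc3 at 85.7 ± 9.66 per kb in IDPN (SD, n = 3), where Panx1 and Gjc3 were within their spread.

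The order depends on the length used, since the merged exons of a gene can be much longer than its average annotated transcript, as in Gja1 (10257 against 1836 bases). Per kilobase of average transcript, Gjb6 was above Gjb2 beyond their spread in both groups, with 115241 ± 26493 against 43836 ± 10648 in Control and 59980 ± 5111 against 30126 ± 4832 in IDPN (SD, n = 3). In Control, Gjb6 was therefore the higher of this pair under both lengths. In IDPN the order of the pair depended on the length and is not settled by these data. On the same length, Panx1 stood above Gjb1 in Control, at 370.02 against 212, and Gja1 above Gjc3, at 126.6 against 99.4. Under either length Gjb6 and Gjb2 were over all other members.

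**Figure D1:**
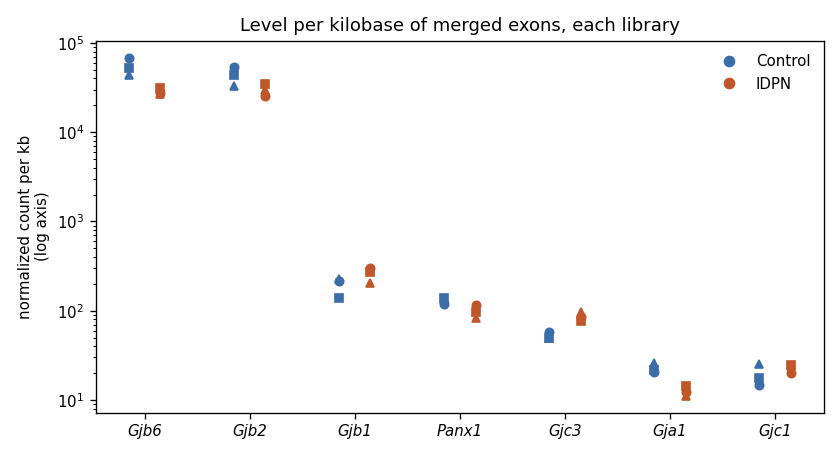
Normalized count per kilobase of merged exons on a log axis, for each member in each library (blue, Control; orange, IDPN; circle, square and triangle, replicates 1, 2 and 3). Gjb6 and Gjb2 sit far above the other 5 members, whose means lie between 12.7 and 258 per kb.

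Of the 7 members, 2 were downregulated (Gjb6 and Gja1), 1 was upregulated (Gjc3) and 4 did not pass the test (Gjb2, Panx1, Gjb1 and Gjc1). A gene was called when its Padj in the DESeq2 Wald test was under 0.05 and its fold change exceeded 1.5. Across all 17650 genes tested, 3.42% were called lower and 2.32% higher in IDPN. In normalized counts, the 2 groups had no overlap between their libraries for 4 members (Gjb6, Gja1, Gjc3 and Panx1), a pattern found in 22.5% of the tested genes. The median log2-Fold_Change (IDPN over Control) of the members was -0.40, beside 0.02 over all genes tested. The edgeR quasi-likelihood test called 0 of the members at an adjusted p under 0.05, beside 3.21% of its 16310 genes, while its unadjusted p was under 0.05 for 4 members, beside 17.7% of those genes.

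**Figure D2:**
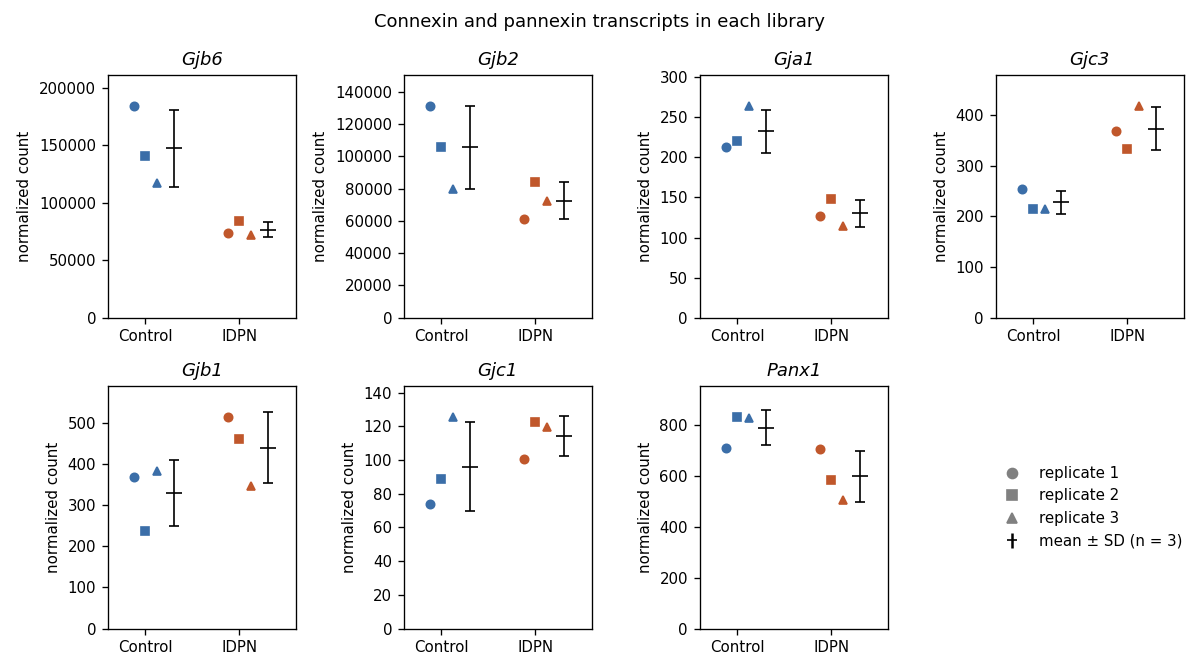
Normalized count of each member in each library, with the mean and SD of each group (n = 3; each axis starts at 0). Control and IDPN libraries are apart for Gjb6, Gja1, Gjc3 and, narrowly, Panx1, and overlap for Gjb2, Gjb1 and Gjc1.

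Gjb6, the Cx30 gene, had the lowest Padj of the members. Control 1 to 3 had 183753, 141099 and 116893 normalized counts, and IDPN 1 to 3 had 73816, 84107 and 71996. All IDPN libraries were below the lowest Control library, and the Control libraries were spread more widely than the IDPN ones. The mean fell from 147249 ± 33852 to 76640 ± 6530 (SD, n = 3), a 1.92-fold lower level, and the log2-Fold_Change was -0.94 (SE 0.18, Padj 2.80e-05 in DESeq2). It was called under total-count scaling too (log2-Fold_Change -0.67, DESeq2 Padj = 0.0167) and with any of the 6 libraries left out, while edgeR gave the same size of change with an adjusted p of 0.0690. In bulk tissue, fewer cells that express a gene and less RNA per cell cannot be told apart.

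Gjb2, the Cx26 gene, did not pass the test. Normalized counts were 130825, 105987 and 79593 in Control 1 to 3 against 61008, 84252 and 72192 in IDPN 1 to 3. IDPN 2 was higher than Control 3, so the groups overlapped in normalized counts. As shares of all counts they did not, with 0.206% to 0.255% in Control and 0.177% to 0.193% in IDPN. Means were 105468 ± 25620 in Control and 72484 ± 11625 in IDPN (SD, n = 3), and the log2-Fold_Change was -0.54 (SE 0.20, Padj 0.0886 in DESeq2), with a 95% interval from -0.94 to -0.15 before adjustment. The result turned on single libraries: Gjb2 was called without Control 3 (log2-Fold_Change -0.71, DESeq2 Padj = 0.00323) and without IDPN 2 (-0.66, DESeq2 Padj = 0.0447). Total-count scaling gave a log2-Fold_Change of -0.27 (DESeq2 Padj = 0.433).

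The balance within the Cx26 and Cx30 pair was then compared within libraries, which does not depend on scaling. There were 0.712, 0.751 and 0.681 Gjb2 counts per Gjb6 count in Control 1 to 3 against 0.826, 1.002 and 1.003 in IDPN 1 to 3. Each IDPN library had a higher ratio than each Control library. Gjb2 made up 40.5% to 42.9% of the pair in Control, 45.2% in IDPN 1, and 50.04% and 50.07% in IDPN 2 and 3. The 95% Wilson intervals, again with each read as an independent draw, were at most 0.499 percentage points wide. The mean log2 ratio was 0.40 higher in IDPN, and the two-sided exact permutation test gave p = 0.10, its lower limit for 3 libraries a group, or 0.22 after adjustment over the 11 ratios computed. Leaving out any library kept the difference between 0.35 and 0.49.

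Summed supporting cell markers lay lower in IDPN, a sum made up mostly of Sparcl1, Slc1a3 and Otog. The summed normalized count of 8 such markers, none of them at 0, was between 224957 and 302630 in Control and between 173179 and 209133 in IDPN. Of these, 1 was called lower (Sparcl1, log2-Fold_Change -0.59, DESeq2 Padj = 0.0365) and 0 higher, beside 3.42% and 2.32% of all tested genes. The median log2-Fold_Change of the 8 markers was -0.41. Lfng (0.66) and Sox9 (0.12) had values in the other direction. Under total-count scaling, and in edgeR, 0 of them were called. The part of this shift in the values of Gjb6, Gjb2 and Gja1 was not tested beyond the ratios that follow.

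Both genes were also set against the summed supporting cell markers within each library. For Gjb6 this ratio was 0.607, 0.531 and 0.520 in Control 1 to 3 against 0.410, 0.402 and 0.416 in IDPN 1 to 3. All IDPN ratios were below all Control ratios, with a mean log2 difference of -0.43 (two-sided exact permutation p = 0.10, adjusted 0.22). For Gjb2 it was 0.432, 0.399 and 0.354 in Control and 0.339, 0.403 and 0.417 in IDPN. Here the groups overlapped, and the log2 difference of -0.03 (two-sided exact permutation p = 0.80) changed sign with single libraries, reaching 0.03 without Control 1 and 0.06 without IDPN 1.

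**Figure D3:**
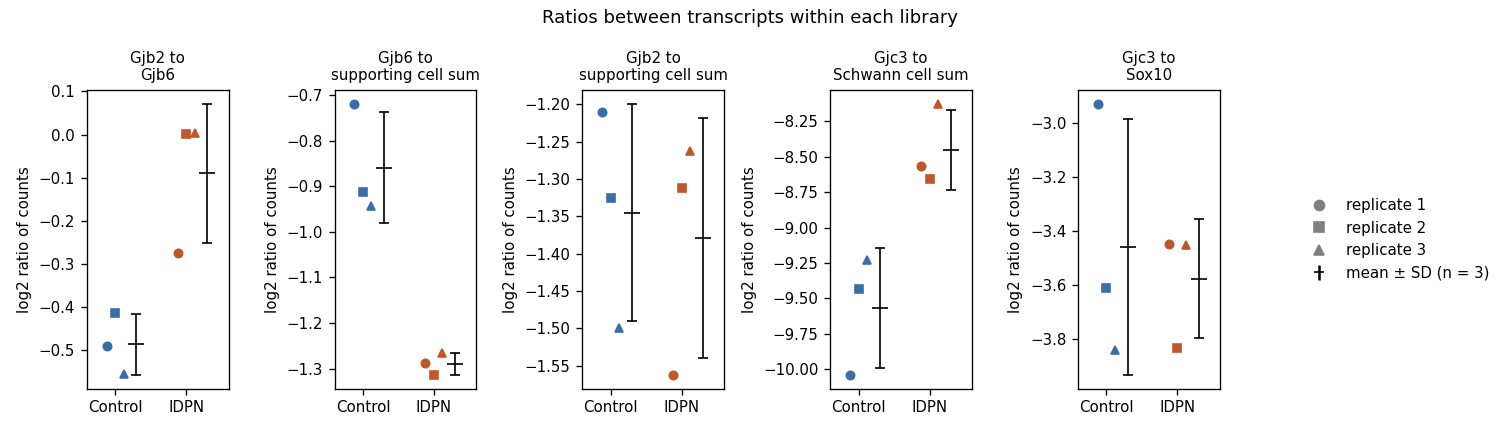
Log2 ratios of counts within each library for 5 of the 11 ratios, with the mean and SD of each group (n = 3; the axes do not start at 0). The groups are apart for Gjb2 to Gjb6, Gjb6 to the supporting cell sum and Gjc3 to the Schwann cell sum, and overlap for Gjb2 to the supporting cell sum and Gjc3 to Sox10.

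Fibrocytes of the stroma also carry these connexins. The summed count of 7 stroma markers was between 1565070 and 2517100 in Control and between 1618390 and 1820280 in IDPN, with 0 called and none at 0, and this sum was almost wholly the fibrocyte gene Coch (log2-Fold_Change -0.31, DESeq2 Padj = 0.434). The other markers of the list had log2-Fold_Change values from 0.03 to 1.04, and the median of the list was 0.32. In normalized counts, Coch was lowest among the Control libraries in Control 3, as were Gjb6, Gjb2 and the summed supporting cell and Schwann cell markers. As a share of all counts, Gjb6 was lowest in Control 2 (0.288%, against 0.303% in Control 3). Whether stroma content bears on the values of Gjb6 and Gjb2 was not tested.

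Gja1, the Cx43 gene (chr10:56377330-56402513, plus strand), was downregulated at a low level of expression. Its normalized count was 213, 220 and 263 in Control 1 to 3 against 127, 149 and 115 in IDPN 1 to 3. The groups did not overlap. The mean went from 232 ± 27.0 to 130.0 ± 17.2 (SD, n = 3), 1.79-fold lower, and the log2-Fold_Change was -0.84 (SE 0.25, Padj 0.0175 in DESeq2). The call rested on small counts, under 300 per library, and was lost under total-count scaling (log2-Fold_Change -0.62, DESeq2 Padj = 0.253). It was also lost without Control 2 (Padj = 0.0582), Control 3 (0.0700), IDPN 1 (0.0960) or IDPN 3 (0.109) in the DESeq2 fit, and in edgeR (adjusted p = 0.0685). The log2 ratio of Gja1 to Gjb2 differed by -0.32 (two-sided exact permutation p = 0.40), reaching -0.54 without Control 1 and -0.03 without Control 3. That of Gja1 to the supporting cell markers differed by -0.35 (two-sided exact permutation p = 0.20), and by -0.15 without Control 3.

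Gjc3, the Cx29 gene of myelinating glia (chr5:137953461-137963098, minus strand), was the member that was upregulated. Its normalized count was 255, 215 and 214 in Control 1 to 3 against 369, 333 and 417 in IDPN 1 to 3. Every IDPN library was above every Control library. The mean rose from 228 ± 23.2 to 373 ± 42.1 (SD, n = 3), 1.64-fold higher, and the log2-Fold_Change was 0.71 (SE 0.21, Padj 0.0198 in DESeq2). Total-count scaling gave 0.98 (DESeq2 Padj = 0.00979), and the call was lost without Control 2 (Padj = 0.115), IDPN 1 (0.0869) or IDPN 3 (0.147) and in edgeR (adjusted p = 0.0559).

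Gjb1, the Cx32 gene of myelinating Schwann cells (chrX:101376378-101385629, plus strand), did not pass the test. It had normalized counts of 369, 238 and 383 in Control 1 to 3 against 514, 461 and 346 in IDPN 1 to 3. IDPN 3 lay below 2 of the Control libraries. Means were 330 ± 79.9 and 440.3 ± 85.7 (SD, n = 3), and the log2-Fold_Change was 0.42 (SE 0.25, Padj 0.405 in DESeq2), with a 95% interval from -0.07 to 0.90. The log2 ratio of Gjb1 to Gjc3 differed by -0.28 between the groups (two-sided exact permutation p = 0.40), and by -0.46 without Control 2, -0.12 without Control 3 and -0.03 without IDPN 3, so a difference in response between these genes was not shown.

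Schwann cell markers gave a mixed picture beside Gjc3. Of 12 markers, none at 0, 1 was called higher and 0 lower, beside 2.32% and 3.42% of all tested genes. The called gene was Sox10 (log2-Fold_Change 0.80, DESeq2 Padj = 0.00108), a transcription factor of the Schwann cell lineage that melanocytes and other inner ear cells also express. The summed normalized count of the 12 markers was between 128878 and 268372 in Control and between 116627 and 139656 in IDPN, with a median log2-Fold_Change of -0.26. Against this sum Gjc3 was higher in every IDPN library, by 1.12 in mean log2 ratio (two-sided exact permutation p = 0.10, adjusted 0.22). Against Sox10 it was not, with a difference of -0.12 (two-sided exact permutation p = 0.90) that reached 0.15 without Control 1. For Gjb1 against the Schwann cell sum the difference was 0.84 (two-sided exact permutation p = 0.10). The 6 melanocyte markers summed to between 6366 and 14355 in Control and between 14606 and 22129 in IDPN, with 0 called, but 4 of 6 were called higher under total-count scaling, where Gjc3 and Sox10 were called too. Their part in Gjc3 was not tested.

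Gjc1, the Cx45 gene (chr11:102799579-102819700, minus strand), had the lowest mean normalized count of the members, 105 over all libraries. Normalized counts were 74.0, 88.9 and 125 in Control 1 to 3 against 101, 122 and 119 in IDPN 1 to 3, and the groups overlapped. The log2-Fold_Change was 0.24 (SE 0.32, DESeq2 Padj = 0.789), with a 95% interval from -0.38 to 0.86 that includes a 1.5-fold change upward.

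Panx1, the ATP release channel gene (chr9:15002128-15045478, minus strand), did not pass the test, although its groups did not overlap in normalized counts. Its normalized count was 710, 829 and 826 in Control 1 to 3 against 703, 581 and 505 in IDPN 1 to 3. IDPN 1 was just under Control 1, and the other IDPN libraries were well below. The log2-Fold_Change was -0.40 (SE 0.19), with an unadjusted p of 0.0372 and a DESeq2 Padj of 0.249. As a share of all counts the groups overlapped, with 0.00204% in IDPN 1 against 0.00138% in Control 1. Total-count scaling gave a log2-Fold_Change of -0.15 (DESeq2 Padj = 0.785).

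**Figure D4:**
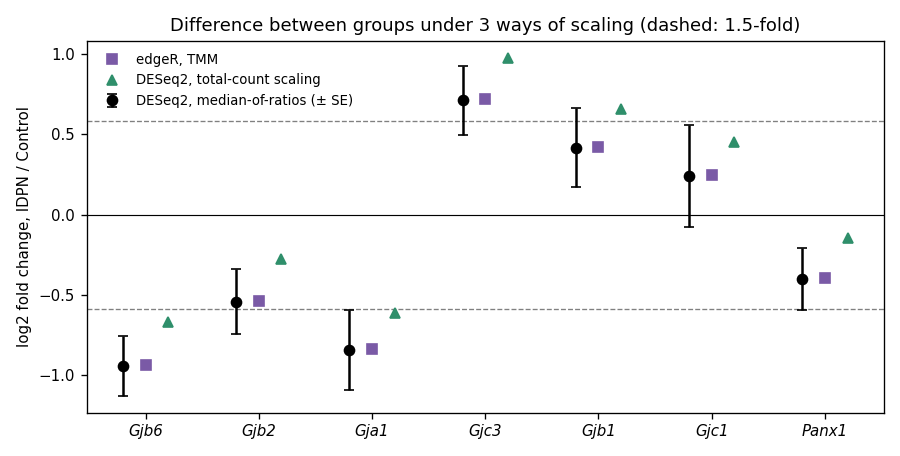
Log2 fold change of each member, IDPN over Control, from DESeq2 with median-of-ratios size factors (circles, bars are ± SE), edgeR with TMM factors (squares) and DESeq2 with total-count scaling (triangles), with dashed lines at 1.5-fold. No member changes direction, and total-count scaling moves each value upward.

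Scaling moved all members the same way. With total counts in place of median-of-ratios factors, the median log2-Fold_Change of 16418 genes went from 0.01 to 0.26, a shift of 0.25. Calls then turned mostly upward, with 1.28% of genes lower and 3.64% higher. Of the members, 1 was called lower (Gjb6) and 1 higher (Gjc3) on that scale.

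Summed HC markers were lower in the same libraries. Of 10 markers, 6 were called lower, among them Ptprq (log2-Fold_Change -1.55) and Gfi1 (-1.21), and 0 higher. Of all tested genes, 3.42% were called lower and 2.32% higher. Myo7a (log2-Fold_Change 0.01, DESeq2 Padj = 0.987) and Espn (-0.18, DESeq2 Padj = 0.830) were not called. The sum of the 10 markers was between 45209 and 47319 in Control and between 20541 and 23256 in IDPN, with Ptprq its largest part. Of 8 neuron markers, 7 were tested and 4 called lower, with sums of 5433 to 5655 in Control against 3453 to 3652 in IDPN. Under total-count scaling 3 HC markers and 0 neuron markers were called, and edgeR called 5 and 2. Endothelium markers had 1 of 7 called lower (Kdr; 0 under total-count scaling), while 0 of 5 mural, 0 of 6 bone and 0 of 10 macrophage markers were called. Erythroid markers had 4 of 5 called higher (0 in edgeR), with sums of 16167 to 36635 against 34689 to 49091. No marker gene was at 0 in all libraries, and the part of these shifts in the member values was not tested.

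The rest of the connexin family had few counts. Of 14 other connexin genes, Gja10 and Gje1 had 0 counts in any library. For 1 library taken alone, a 0 allows up to 3 counts from counting error, and the 6 libraries together allow fewer per library. Of the 14, 4 had enough counts to be tested and 0 were called. Their summed normalized counts were 48.0 to 113 in Control and 139 to 637 in IDPN for all 14. Gja4, the Cx37 gene of arterial endothelium, was the most abundant of them, with 43.7, 66.9 and 24.0 in Control 1 to 3 against 58.8, 579 and 109 in IDPN 1 to 3. IDPN 2 alone carried the high value, and the log2-Fold_Change of 2.47 (SE 1.01) did not pass the test (DESeq2 Padj = 0.138). Of the other pannexins, Panx3 had no counts and Panx2 had 8.40 to 32.3 normalized counts per library, with a log2-Fold_Change of 0.28 (DESeq2 Padj = 0.917).

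Partners of connexins, which anchor, phosphorylate or turn over the channels, had 1 call. Of 15 genes, all tested, 1 was called higher and 0 lower, beside 2.32% and 3.42% of all tested genes. Their median log2-Fold_Change was 0.03. Whether this list or those that follow responded as a set was not tested. The gene that rose was Ccn3 (listed as Nov), a secreted matricellular protein known to bind the tail of Cx43. Its normalized count was 2555, 2156 and 1577 in Control 1 to 3 against 5980, 8341 and 7550 in IDPN 1 to 3, with no overlap. The log2-Fold_Change was 1.80 (SE 0.20, DESeq2 Padj = 7.18e-16), and edgeR called it too (adjusted p = 0.00185). Ctnnb1, the gene of beta-catenin and the most abundant of the list, had a log2-Fold_Change of 0.20 (DESeq2 Padj = 0.614).

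Genes that act on extracellular nucleotides, which pannexin and connexin hemichannels can release, gave 2 calls, both higher. Of all tested genes, 2.32% were called higher. Of 14 nucleotide receptor genes, 11 were tested and 1 was called: P2ry14, a receptor for UDP-sugars, had 122, 151 and 158 in Control 1 to 3 against 239, 225 and 257 in IDPN 1 to 3. The groups did not overlap, and the log2-Fold_Change was 0.74 (SE 0.24, DESeq2 Padj = 0.0393), with an edgeR adjusted p of 0.0883. P2rx2, an ATP-gated channel and the most abundant of these receptors, had a log2-Fold_Change of -0.22 (DESeq2 Padj = 0.578).

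Of 8 ectonucleotidase genes, all tested, 1 was called higher (Entpd8) and 0 lower, beside 2.32% and 3.42% of all tested genes. Normalized counts of 52.2, 49.6 and 33.8 in Control stood against 106, 130 and 128 in IDPN, with no overlap. The log2-Fold_Change was 1.43 (SE 0.34), and DESeq2 gave a Padj of 0.00128. Enpp2, the most abundant gene of that list, differed by -0.20 on the log2 scale (DESeq2 Padj = 0.552). None of the 4 adenosine receptor genes was called, Adora3 having no counts and Adora1 a log2-Fold_Change of 0.54 (DESeq2 Padj = 0.221).

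Potassium route genes take up and secrete the potassium that connexin networks are thought to carry. Of 13 tested, 1 was called lower and 0 higher, beside 3.42% and 2.32% of all tested genes. Their median log2-Fold_Change was -0.32. Atp1b1, the gene of a sodium pump subunit, fell from 25459, 24767 and 18420 normalized counts in the Control libraries to 9630, 13312 and 12750 in the IDPN libraries, with no overlap. Its log2-Fold_Change was -0.94 (SE 0.19, DESeq2 Padj = 3.45e-05). It passed edgeR as well (adjusted p = 0.0369). Atp1b2, another sodium pump subunit and the most abundant gene of the list, had a log2-Fold_Change of -0.32 (DESeq2 Padj = 0.464).

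**Figure D5:**
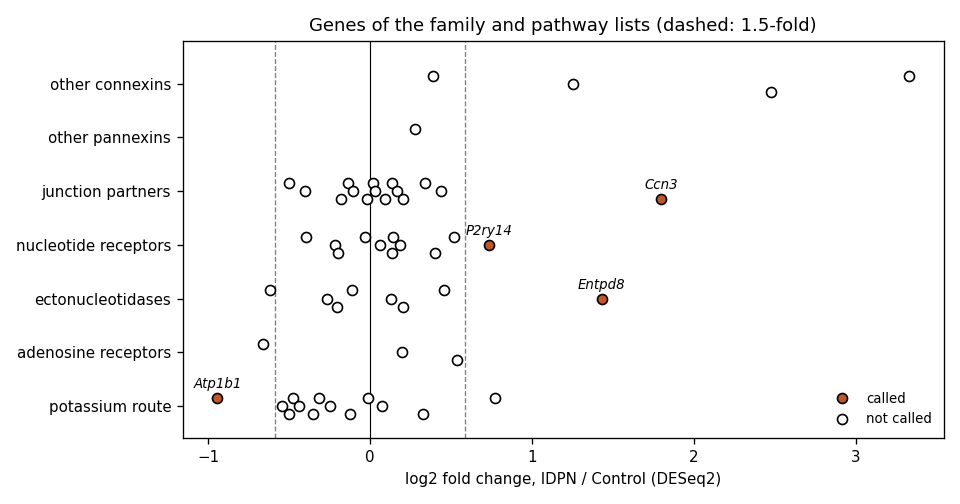
Log2 fold change, IDPN over Control, of each tested gene in the 7 family and pathway lists (filled, called by DESeq2; open, not called; dashed lines at 1.5-fold; vertical scatter has no meaning). Of 55 tested genes, 3 were called higher and 1 lower, beside 2.32% and 3.42% of all tested genes.

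The genes with a profile most like that of each member were sought over the 6 libraries, among 11164 genes whose mean over these libraries was 100 normalized counts or more. Likeness was the root mean square difference of log2(normalized count + 1), each gene centred on its own mean. Nearest to Gjb6 were Clu (0.056), which encodes the secreted chaperone clusterin, Calm2 (0.0873) and Epdr1 (0.0901). Nearest to Gjb2 were Itm2b (0.0607), Pxylp1 (0.0612) and Twf1 (0.0673), and Gjb6 came only at position 751. Gja1 was closest to Bambi (0.0605), Drc1 (0.071) and Kif9 (0.0711), and Gjc3 to Ptpn14 (0.0566), Gnpda1 (0.0825) and Enpp6 (0.0848). For Gjb1 they were BC067074 (0.0585), Ccdc159 (0.0835) and Slc35f2 (0.0886), for Gjc1 Nus1 (0.0465), Rbbp6 (0.0587) and Igf2r (0.0592), and for Panx1 Slc25a14 (0.0405), Thrb (0.0509) and Ccpg1os (0.0581). These distances are descriptions over libraries of both groups, so the difference between the groups enters each profile. The libraries also differ in size factor.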

How the data were processed

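RNA of the vestibular epithelium of 6 mice was measured in 1 labelled batch. Per the labels, 6 to 11 ng of total RNA was copied from an oligo-dT primer by a SMART-seq2 protocol without molecular identifiers, so that PCR copies are counted as reads. The authors aligned reads with STAR 2.5.3a to GRCm38 and estimated gene counts with RSEM 2.3.0, versions as the submitters' processing notes give them. The deposited values are these expected counts, given as whole numbers for 52636 genes with no normalization or filter, and 0 columns lacked a sample. Totals were between 40474847 and 43566332 per library, and DESeq2 size factors between 0.825 and 1.21.

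All genes were fitted with DESeq2 1.42.0 (R 4.3.3, Wald test, median-of-ratios size factors, no covariate, independent filtering at 0.05), and Padj was taken over all tested genes. Alternatives were edgeR 4.0.16 (quasi-likelihood, TMM, filterByExpr), TMM or total-count size factors, a filter of at least 10 counts in 3 libraries, independent filtering off, Cook's distance filter off, a test against a fold change of 1.5, and each library left out in turn. The code was tested on simulated data. Single values were compared by two-sided exact permutation tests, which cannot go below p = 0.10 here.

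Gene models, lengths and coding sequences came from GENCODE M21 (GRCm38), a later release than the authors' annotation. The members and gene lists were chosen with earlier results of these data known, and the ratios to summed markers and to Sox10 after seeing the values. Named genes are the members, the called genes of each list (at most 5, by lowest Padj) with its most abundant gene, and the 3 nearest genes of each member outside Gm and Rik models. Of marker lists, a selection of these is named. Groups came from the sample titles. Some items of the gene lists and ratios are not reported here.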

Additional observations from a re-analysis of the deposited data

How the results depend on the processing

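No alternative turned the direction of any member, of 13 tried for each. Gjb1, Gjc1 and Panx1 were called under none of them. With edgeR the log2-Fold_Change was -0.84 for Gja1, -0.94 for Gjb6 and 0.72 for Gjc3, and none of them was called, so 0 members were called lower and 0 higher, beside 2.19% and 1.02% of genes. Against a fold change of 1.5 the same genes (-0.84, -0.94 and 0.71) were not called, with 0 members lower and 0 higher, and family and pathway genes numbered 0 lower and 1 higher. Under total-count scaling Gja1 (-0.62) was lost and 1 member was called lower, with 5 family and pathway genes higher, beside 1.28% of genes lower and 3.64% higher. Apart from the construction of the test against 1.5-fold, which asks for more, the cause of these losses was not tested.

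With 1 library left out, the log2-Fold_Change lay between -0.95 and -0.74 for Gja1, between -0.71 and -0.36 for Gjb2, and between 0.62 and 0.79 for Gjc3. Members called lower then numbered 1 to 3 and called higher 0 to 1. Family and pathway genes numbered 1 to 3 called lower, the 3 without Control 3, and 2 to 3 called higher. The share of all genes called higher was between 1.35% and 3.82%. The log2 ratio differences lay between -0.54 and -0.03 for Gja1 to Gjb2, between -0.46 and -0.03 for Gjb1 to Gjc3, between -0.51 and -0.15 for Gja1 to the supporting cell sum, between -0.11 and 0.058 for Gjb2 to that sum, and between -0.31 and 0.15 for Gjc3 to Sox10.

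Per kilobase of average transcript, Control levels were 126.6 for Gja1, 115241 for Gjb6, 49.2 for Gjc1, 99.4 for Gjc3 and 370.02 for Panx1. No paired analysis was run, because each library came from a different animal and the labels match no Control animal with an IDPN animal.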
